A study of Mus musculus with 6 samples.

Results

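The genes described here are the 10 that encode the receptors for sphingosine 1-phosphate (S1P) and the main proteins that make, break and export this lipid: S1pr1, S1pr2, S1pr3, S1pr4, S1pr5, Sphk1, Sphk2, Sgpl1, Sgpp1 and Spns2. They were found by gene identifier and symbol among the 55487 genes of the deposited count table, and all 10 passed the filter on low counts that left 15774 genes to test. The data are RNA-seq counts of Ly6G-positive neutrophils sorted from perfused, liberase-digested mouse lung. The 3 mutant libraries came from Mrp8-Cre;TGFbR2-fl/fl mice, and the 3 wt libraries came from Cre-negative TGFbR2-fl/fl littermates. Both groups carry the loxP-flanked Tgfbr2tm1Karl allele, which came from a mixed B6;129 stock. The mutants also carry the transgene Tg(S100A8-cre,-EGFP)1Ilw on a B6 background, which expresses Cre and EGFP from the S100A8 (Mrp8) promoter. Ages are not given in the sources used. The design states 3 mice per group without linking mice to libraries, so that p-values measure library-to-library spread, which may be technical.

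S1P is a lipid signal that is abundant in blood and lymph and scarce inside tissues. Cells sense this gradient through 5 G protein-coupled receptors, and the balance among the receptors is known to set whether a cell moves towards S1P, is held back by it, or tightens its contacts. Sphingosine kinases make the lipid from sphingosine, the exporter Spns2 releases it, phosphatases return it to sphingosine and the lyase Sgpl1 destroys it for good. In the lung the receptor S1PR1 is best known from endothelium, where it supports the vessel barrier, and from lymphocytes, which follow S1P out of lymphoid organs.

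Library totals ran from 30403494 to 35906780 counts. Tgfbr2, the gene targeted in the mutants, was at 176, 205 and 181 TMM-scaled CPM (reads of the gene relative to library size) in mutant replicates 1 to 3, against 186, 185 and 201 CPM in wt replicates 1 to 3. This count pools all exons of the gene and so does not check the deletion of part of it. Neutrophil markers were present in every library, with the G-CSF receptor gene Csf3r at 7689 to 8111 CPM in mutants against 8042 to 9233 CPM in wt. The sort marker Ly6g itself was low, at 14.4 to 33.6 CPM in mutants against 19.3 to 35.2 CPM in wt. Of the 10 neutrophil markers 7 had log2 fold changes below 0 and 3 above, with a median of -0.16. Of all tested genes 6.21% were lower in mutants without overlap, and of these markers 2 were. These were the chemokine receptor gene Cxcr2, at 2024 ± 99.2 CPM in mutants against 2567 ± 80.8 in wt, and the calgranulin gene S100a8, at 1149 ± 310.2 CPM in mutants against 1709 ± 36.8 in wt (SD, n = 3 each). DESeq2, which called 0.469% of all genes lower, called both (adjusted p of 0.016 for Cxcr2 and 0.034 for S100a8). The edgeR test called neither (0.294 and 0.405). The markers together summed to 16372 to 21608 CPM in mutants against 19282 to 20816 CPM in wt, and their part in the member values was not tested. Transcripts of other lung cells were also present in all libraries, and levels of several types known to express members are given below.

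**Figure D1:**
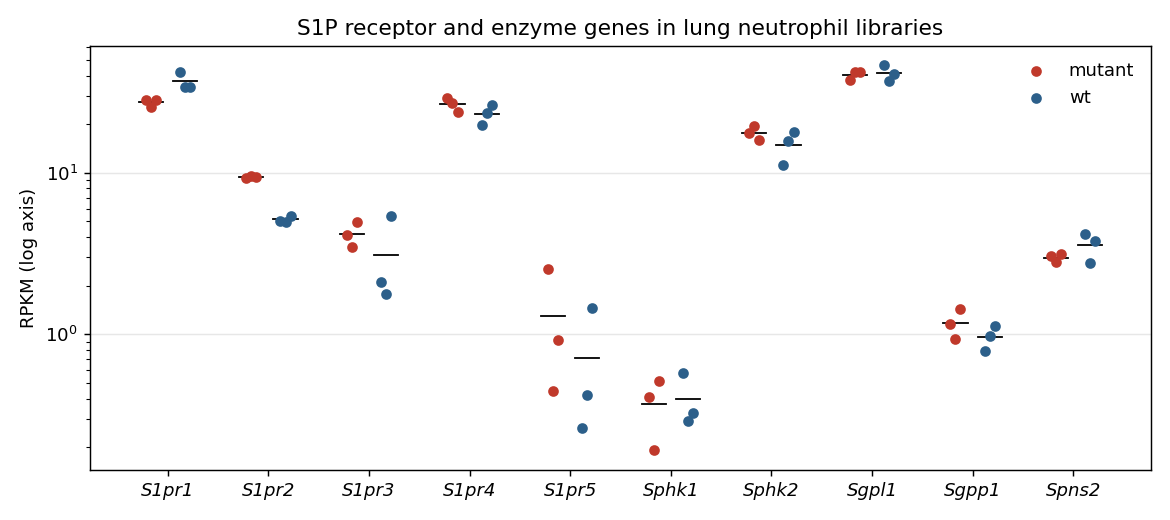
Level of each gene in RPKM (log axis) in the 3 mutant libraries (red) and the 3 wt libraries (blue); each point is a library and each bar a group mean. S1pr2 is the gene whose mutant points all lie above the wt points, and S1pr1 the gene whose mutant points all lie below them.

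S1pr2 was the member that set the choice of this family: it ranked 2 of 15774 genes by p in the comparison of mutants with wt, and its values are therefore a description. S1PR2 couples to several G proteins, among them those that activate RhoA, and is known for restraining cell migration. The gene (ENSMUSG00000043895.6) lies on the minus strand of chromosome 9, from 20962361 to 20976781 in GRCm38, and its coding sequence is a single segment of 1056 bases. S1pr2 had 2682, 2264 and 2443 counts in mutant replicates 1 to 3, against 1227, 1192 and 1387 counts in wt replicates 1 to 3. In CPM this was 74.1, 76.7 and 75.1 in mutants against 40.3, 39.4 and 43.3 in wt. The groups did not overlap, mutants being higher, and the libraries within each group stood close together. The means were 75.3 ± 1.29 CPM in mutants against 41.0 ± 2.08 CPM in wt (SD, n = 3 each), a log2 fold change of 0.88 ± 0.12 (SE) with a 95% interval of 0.62 to 1.14. Over all tested genes the edgeR adjusted p was 0.165, so S1pr2 was not called. Its log2 fold change lay between 0.85 and 0.92 under all alternatives, while DESeq2, edgeR without the filter and edgeR restricted to a mean CPM of 10 or more did call it.

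The window upstream of S1pr2 is shown because this is the member with the widest gap between groups, and that of S1pr4 because it is a receptor of similar CPM, though higher per length, whose groups overlapped. Both are the 250 bases before the RefSeq start (GRCm38.p6, minus strand), at chr9:20976794-20977043 for S1pr2 and chr10:81500138-81500387 for S1pr4. Capitals mark matches to any of the motifs searched on both strands, whose letters were chosen after the S1pr2 window had been read.
S1pr2: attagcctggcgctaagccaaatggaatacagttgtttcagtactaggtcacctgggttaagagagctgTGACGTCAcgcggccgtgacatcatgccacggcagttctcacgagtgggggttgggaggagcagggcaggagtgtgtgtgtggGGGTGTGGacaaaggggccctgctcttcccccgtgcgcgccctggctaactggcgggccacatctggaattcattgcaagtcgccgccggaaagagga
S1pr4: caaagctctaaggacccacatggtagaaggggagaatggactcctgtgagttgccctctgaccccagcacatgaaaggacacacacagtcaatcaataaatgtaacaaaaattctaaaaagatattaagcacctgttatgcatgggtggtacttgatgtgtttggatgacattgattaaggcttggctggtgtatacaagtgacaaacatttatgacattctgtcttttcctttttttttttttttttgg

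The S1pr2 window held the full cyclic AMP response element TGACGTCA at bases 181 to 174 before the start, a motif found in 1.55% of the 32851 upstream windows of the same length. It also held GGGTGTGG, a Kruppel-like factor motif, at bases 98 to 91, which 3.20% of all windows had. The shorter TGACG, which lies inside the full element on both strands, was in 17.8% of windows. The S1pr4 window held none of the motifs searched, which also included TGANTCA (AP-1), GCGNGGGCG (EGR), GGGCGG (Sp) and GTCTAGAC (a SMAD palindrome). The windows differ in base content, with 38.8% G or C for S1pr4 against 59.2% for S1pr2, and several of these motifs are rich in G and C. Over the members 9 of 10 matched a RefSeq window, 14 windows in all. S1pr1 was the member without a window, so its upstream bases were not searched. GGGCGG was the motif met in most member windows, 5 of the 14, from S1pr3, S1pr5, Sgpl1 and Sphk2, against 32.7% of all windows. TGACG was in 4 of the 14, from S1pr2, Sphk2 and 2 overlapping windows of Sphk1 that share a site. Among the members TGANTCA was found only for Sphk1, in 2 overlapping windows of its 5, against 6.75% of all windows. GCGNGGGCG and GTCTAGAC were in none of the member windows, against 4.70% and 0.167% of all windows.

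S1pr1 was the other member whose groups did not overlap, in the opposite direction. S1PR1 couples to Gi and drives movement towards S1P. The gene (ENSMUSG00000045092.8) lies on the minus strand of chromosome 3, from 115710433 to 115715072. It had 3099, 2307 and 2796 counts in mutant replicates 1 to 3, against 3888, 3152 and 3331 counts in wt replicates 1 to 3. This was 85.7, 78.2 and 86.0 CPM in mutants against 128, 104 and 104 CPM in wt, with wt replicate 1 standing above the other wt libraries. The means were 83.3 ± 4.43 CPM in mutants against 112 ± 13.6 CPM in wt (SD, n = 3 each), with a log2 fold change of -0.43 ± 0.12 (SE), a 95% interval of -0.70 to -0.15 and an edgeR adjusted p of 0.460. S1pr1 was not called in any alternative, and without wt replicate 1 its log2 fold change was -0.32.

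Among the 10 members 0 were called in either direction by edgeR, where 0.00634% of all tested genes were called higher and 0% lower. With an unadjusted p below 0.05 there was 1 higher member and 1 lower member, S1pr2 and S1pr1, against 3.51% of all genes higher and 3.22% lower. DESeq2 called 1 member higher and 0 lower (0.514% and 0.469% of all genes), limma-voom called 0 (0.00634% of all genes higher and 0% lower), and edgeR restricted to a mean CPM of 10 or more called 1 higher and 0 lower (0.188% and 0.0869%). Groups did not overlap for 1 member on the higher side and 1 on the lower side, against 6.82% and 6.21% of all genes. Because the family was picked on this comparison, nothing is read from these counts. The log2 fold change was positive for 6 members and negative for 4, with a median of 0.22, beside a median of 0.0054 over all tested genes.

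**Figure D2:**
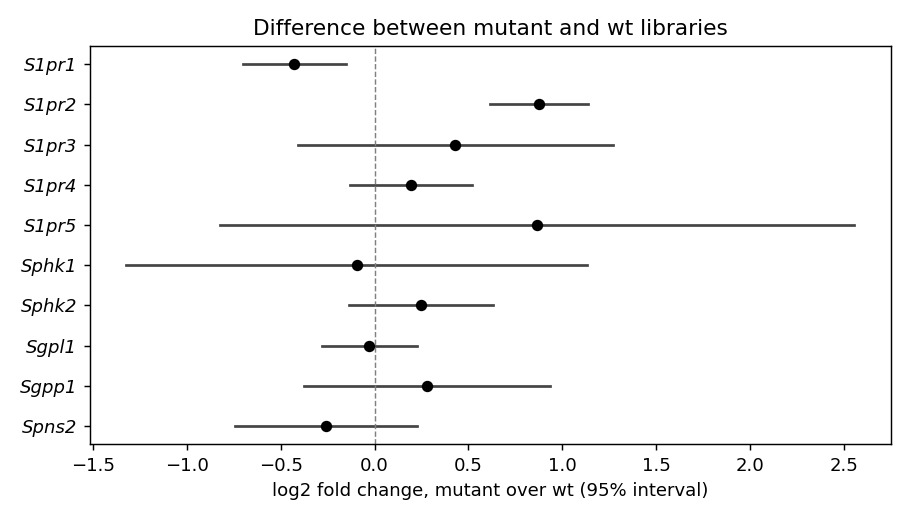
Log2 fold change of each gene, mutant over wt, with its 95% interval from the edgeR fit across all genes; the dashed line marks no difference. The interval of S1pr2 lies above 0 (0.62 to 1.14) and that of S1pr1 below 0 (-0.70 to -0.15), and the other 8 intervals include 0.

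The remaining receptors overlapped between groups. S1pr4, a receptor found mainly on blood and lymphoid cells, was at 69.3, 64.6 and 56.5 CPM in mutants against 47.4, 56.1 and 62.9 CPM in wt, a log2 fold change of 0.19 with a 95% interval of -0.13 to 0.52. S1pr3, which is known from vessel wall and stromal cells, was at 18.5, 15.6 and 22.1 CPM in mutants against 9.46, 7.99 and 24.3 CPM in wt. Its wt replicate 3 stood above every mutant library while the other wt libraries stood below all of them, and the interval of its log2 fold change ran from -0.41 to 1.27. S1pr5, best known from natural killer cells and patrolling monocytes, was at 6.36, 1.12 and 2.31 CPM in mutants against 0.657, 1.06 and 3.66 CPM in wt. Its counts ran from 33 to 230 in mutants against 20 to 117 in wt, its 95% interval from -0.82 to 2.55, and its log2 fold change of 0.86 turned to -0.063 without mutant replicate 1. Mutant replicate 1 also had the highest level of the fractalkine receptor gene Cx3cr1, a patrolling monocyte marker named after its values were seen, at 16.3, 0.881 and 6.21 CPM in mutants against 2.50, 4.49 and 4.75 CPM in wt. Of the other 5 nonclassical (patrolling) monocyte markers 0 were highest in mutant replicate 1. The 6 markers, none at 0, summed to 6190.4 to 6832 CPM in mutants against 4579.6 to 6467 CPM in wt, of which the immediate early gene Nr4a1 made up 87.1% to 88.1% in mutants against 81.0% to 85.8% in wt. Without Nr4a1, left out after the values were seen, the sum was 739 to 860.2 CPM in mutants against 851 to 920.4 CPM in wt, which overlapped.

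Levels between genes were compared per length, in RPKM. In mutants S1pr1 led the receptors at 27.3 ± 1.46 RPKM with S1pr4 at 26.6 ± 2.71 RPKM, and their libraries overlapped, followed by S1pr2 at 9.45 ± 0.162, S1pr3 at 4.20 ± 0.726 and S1pr5 at 1.30 ± 1.10 RPKM (SD, n = 3). In wt S1pr1 stood at 36.8 ± 4.47 RPKM, above S1pr4 at 23.2 ± 3.25 RPKM without overlap, followed by S1pr2 at 5.14 ± 0.261, S1pr3 at 3.11 ± 2.02 and S1pr5 at 0.716 ± 0.652 RPKM (SD, n = 3). The summed receptor level was 68.9 ± 3.73 RPKM in mutants against 69.0 ± 4.03 RPKM in wt. Within that sum S1pr2 took 12.7% to 14.5% in mutants against 7.30% to 7.62% in wt, and S1pr1 took 38.4% to 42.0% in mutants against 46.9% to 60.5% in wt. S1pr4 took 35.2% to 40.8% in mutants against 28.7% to 36.3% in wt, which overlapped. The ratio of S1pr2 to S1pr1 in RPKM was 0.331, 0.375 and 0.334 in mutant replicates 1 to 3, against 0.121, 0.145 and 0.159 in wt replicates 1 to 3. These shares and ratios restate the member values from the comparison that chose the family and are a description.

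**Figure D3:**
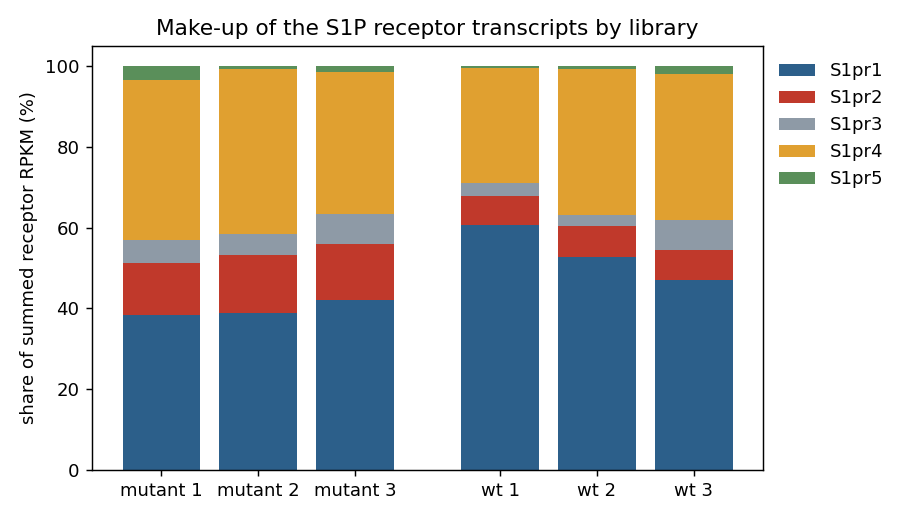
Share of the summed receptor RPKM (percent) taken by each of the 5 receptor genes in each library, mutants on the left and wt on the right. The shares hold for the summed exon length and would differ per coding length. S1pr2 takes 12.7% to 14.5% in mutants against 7.30% to 7.62% in wt, and S1pr1 takes a smaller share in each mutant library (38.4% to 42.0%) than in any wt library (46.9% to 60.5%).

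The place of S1pr2 in this order, the receptor sum and the shares within it depended on the length used. The near-equal sums and the shares above hold for the summed exon length alone. The annotated exons of S1pr2 sum to 7971 bases, of which 13.2% are coding. Of the 3046 bases of S1pr1 37.6% are coding, and of the 2386 bases of S1pr4 48.5%. The gene-level counts do not show how much of the long annotated exons was transcribed. Per kilobase of coding length, a measure added after the data were seen, S1pr2 was at 71.3 ± 1.22 CPM in mutants, beside S1pr1 at 72.7 ± 3.87 and S1pr4 at 54.8 ± 5.59 CPM. In wt it was at 38.8 ± 1.97 CPM per coding kilobase, below S1pr1 at 97.7 ± 11.9 and S1pr4 at 47.9 ± 6.70 CPM (SD, n = 3 each). On this scale the ratio of S1pr2 to S1pr1 was 0.939 to 1.06 in mutants against 0.342 to 0.452 in wt.

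Of the kinases, Sphk2 was the abundant one. Sphk1 is the mainly cytoplasmic enzyme that many stimuli induce, and Sphk2 acts in the nucleus and at mitochondria. Sphk2 was at 73.5, 81.0 and 65.9 CPM in mutants against 46.5, 65.0 and 73.9 CPM in wt, with a log2 fold change of 0.25 and a 95% interval of -0.14 to 0.63. Sphk1 had 71, 27 and 80 counts in mutants against 84, 42 and 50 counts in wt, and its interval ran from -1.32 to 1.13. Sphk2 took 96.9% to 99.0% of the summed kinase RPKM in mutants against 95.1% to 98.2% in wt. The Sphk2 values carry a limit, since its exons share 373 bases with Rpl18 and 539 bases with Dbp on the opposite strand, Rpl18 having 37.7% of the CPM of Sphk2, and reads without strand from such stretches cannot be told apart.

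The enzymes that remove S1P were led by the lyase. Sgpl1, which cleaves S1P irreversibly, was the most abundant member per length in both groups, at 40.6 ± 2.64 RPKM in mutants against 41.4 ± 4.78 RPKM in wt (SD, n = 3 each). Its CPM values of 230.5, 259 and 258 in mutants against 285, 226 and 251 in wt overlapped, and the 95% interval of its log2 fold change, -0.28 to 0.22, was the narrowest of the members. The ratio of Sgpl1 to the summed kinases in RPKM was 2.08 to 2.56 in mutants against 2.26 to 3.94 in wt, with wt replicate 1 the highest. Sgpp1, the phosphatase of the endoplasmic reticulum, was at 6.52, 5.29 and 8.06 CPM in mutants against 4.47, 5.55 and 6.38 CPM in wt, with an interval of -0.38 to 0.93. The exporter Spns2, known as the endothelial source of S1P in lymph, was at 12.4, 11.4 and 12.8 CPM in mutants against 17.1, 11.3 and 15.4 CPM in wt, with an interval of -0.74 to 0.23. Spns2 shares 131 exon bases with Mybbp1a on the opposite strand, a gene at 116% of its CPM.

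In the order of all 10 members per length, Sgpl1, S1pr1, S1pr4, Sphk2 and S1pr2 held places 1 to 5 in both groups. Neighbours in this order whose libraries overlapped were S1pr1 with S1pr4 and S1pr5 with Sgpp1 in mutants, and Sgpl1 with S1pr1, Spns2 with S1pr3, Sgpp1 with S1pr5, and S1pr5 with Sphk1 in wt. Against all tested genes S1pr2 stood at percentile 79.7 of the RPKM values in mutants and 69.9 in wt, S1pr1 at 91.3 in mutants and 93.1 in wt, and Sphk1 at 18.2 in mutants and 20.2 in wt.

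The other genes of the pathway showed no call by edgeR. For the lists below, an unadjusted edgeR p below 0.05 was met by 3.51% of all tested genes higher and 3.22% lower. Of all tested genes 6.82% were higher and 6.21% lower without overlap, and DESeq2 called 0.514% higher and 0.469% lower. Log2 fold changes of the 16 tested sphingolipid synthesis genes were above 0 for 5 and below 0 for 11, with a median of -0.027. By edgeR, DESeq2 and limma-voom 0 were called, and at an unadjusted p below 0.05 edgeR had 1 in each direction. The ceramide synthase gene Cers5 was at 43.2 ± 4.20 CPM in mutants against 33.2 ± 2.66 in wt, the glucosylceramide synthase gene Ugcg at 24.2 ± 3.35 CPM in mutants against 33.3 ± 7.95 in wt, and Sptlc1, a subunit of the enzyme that starts sphingolipid synthesis, at 23.5 ± 2.19 CPM in mutants against 29.1 ± 2.14 in wt (SD, n = 3 each). Groups did not overlap for Cers5 and Sptlc1. In this list 2 genes were higher and 1 lower without overlap. Of 10 ceramide-release genes 6 had values above 0 and 4 below, with a median of 0.050, 0 calls by edgeR or limma-voom, 1 lower gene by DESeq2 and 1 lower gene with an unadjusted p below 0.05. That gene was Acer2, the Golgi ceramidase that yields sphingosine, the substrate of the kinases. Acer2 was at 77.2, 96.5 and 113 CPM in mutants against 158, 129.7 and 149 CPM in wt, so that the groups did not overlap, with a log2 fold change of -0.60 ± 0.15 (SE), an edgeR adjusted p of 0.342 and a DESeq2 adjusted p of 0.019. Smpd4, a neutral sphingomyelinase, was at 4.44 ± 1.30 CPM in mutants against 7.14 ± 1.26 in wt, and Galc, which removes galactose from galactosylceramide, at 11.1 ± 3.30 CPM in mutants against 15.2 ± 4.64 in wt. Smpd4 was also lower without overlap, so that 2 genes of this list were.

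Of 9 tested S1P handling genes 4 had values above 0 and 5 below, with a median of -0.041, 0 calls by edgeR, DESeq2 or limma-voom and 1 higher gene with an unadjusted p below 0.05. This was the second S1P phosphatase gene Sgpp2, with 46, 17 and 91 counts in mutants against 7, 2 and 0 counts in wt, an edgeR adjusted p of 0.488 and levels of at most 2.80 CPM. The lipid transporter genes Abca1, at 26.2 ± 4.95 CPM in mutants against 19.8 ± 4.87 in wt, and Abcc1, at 13.4 ± 4.49 CPM in mutants against 9.41 ± 1.71 in wt, overlapped between groups (SD, n = 3 each). Of 24 genes that couple the receptors to the cell interior or control their surface level, 12 had values above 0 and 12 below, with a median of -0.0066, 0 calls by edgeR or limma-voom, 1 lower gene by DESeq2 and 1 lower gene with an unadjusted p below 0.05. That gene was Klf2, a transcription factor known to drive S1pr1 in lymphocytes, at 76.3, 70.3 and 53.9 CPM in mutants against 133, 103 and 114 CPM in wt. Its groups did not overlap, and its log2 fold change was -0.80 ± 0.16 (SE) with an edgeR adjusted p of 0.263. Cd69, which pulls S1PR1 from the cell surface, had a log2 fold change of 0.04 and was chosen after its values were seen. Among the G protein subunits, Gnai2 was at 245 ± 23.9 CPM in mutants against 278 ± 16.6 in wt and Gnai1 at 2.99 ± 0.848 CPM in mutants against 1.39 ± 1.60 in wt.

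Receptors for related lipids were counted in the same fit. Of 10 tested genes 7 had values above 0 and 3 below, with a median of 0.21, 0 calls by edgeR, DESeq2 or limma-voom and 1 higher gene with an unadjusted p below 0.05. That gene was Ptafr, the receptor for platelet-activating factor, at 839 ± 93.7 CPM in mutants against 699 ± 80.6 in wt, with overlapping libraries (SD, n = 3 each). The lysophosphatidic acid receptor gene Lpar1 was at 5.22 ± 0.874 CPM in mutants against 3.53 ± 0.207 in wt, and Gpr132 at 216 ± 16.6 CPM in mutants against 194 ± 11.3 in wt. The groups of Lpar1 did not overlap, which made it the only such gene in this list.

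Cells other than neutrophils also transcribe these members, and in bulk libraries fewer cells of a type and less RNA per cell cannot be told apart. All 10 endothelial markers were detected and none of these defining genes was at 0, with Cldn5 at 316 to 414 CPM in mutants against 385 to 416 CPM in wt. The markers summed to 1326 to 1542 CPM in mutants against 1453 to 1770 CPM in wt, which overlapped. All 10 had log2 fold changes below 0, from -0.23 to -0.03 with a median of -0.12. S1pr1, at -0.43, lay outside that range. As a percentage of the summed endothelial markers S1pr1 was at 5.63, 5.90 and 5.58 in mutants against 8.19, 7.16 and 5.88 in wt, so that on this scale wt replicate 3 fell within the mutant range. S1pr2 was at 4.87 to 5.79 percent of that sum in mutants against 2.45 to 2.71 percent in wt. Spns2 was at 0.817 to 0.861 percent of that sum in mutants against 0.775 to 1.10 percent in wt. S1pr3 was at 1.18 to 1.43 percent of it in mutants against 0.550 to 1.37 percent in wt, and both overlapped. The part of endothelial RNA in the S1pr1, S1pr3 and Spns2 values was not tested.

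The 6 fibroblast markers, none at 0, summed to 371 to 600 CPM in mutants against 271 to 321 CPM in wt without overlap. Of these, 5 had a positive log2 fold change (median 0.56) and 4 were higher without overlap, against 6.82% of all tested genes. DESeq2 called the collagen gene Col1a1 (adjusted p of 0.049), where it called 0.514% of all genes higher and 0.469% lower. As a percentage of the fibroblast sum S1pr2 was at 19.7, 20.7 and 12.5 in mutants against 12.6, 14.5 and 13.9 in wt. On this scale the groups overlapped, with mutant replicate 3 below every wt library. In CPM S1pr2 spanned 74.1 to 76.7 in the same mutant libraries. The part of fibroblast RNA in the S1pr2 values was not tested.

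Smooth muscle markers summed to 121 to 168 CPM in mutants against 94.9 to 126 CPM in wt. The 8 epithelial markers, none at 0, summed to 457 to 824 CPM in mutants against 210 to 470 CPM in wt, which overlapped. Of these, 7 had a positive log2 fold change (median 0.90) and 3 were higher without overlap, against 6.82% of all tested genes. DESeq2 called the surfactant protein gene Sftpb, at 79.1 ± 13.8 CPM in mutants against 36.7 ± 13.8 in wt (SD, n = 3 each, adjusted p of 0.0022). The 8 alveolar macrophage markers, none at 0, summed to 138 to 204 CPM in mutants against 111 to 163 CPM in wt, with 7 positive (median 0.44) and 2 higher without overlap. The 7 natural killer cell markers summed to 18.9 to 29.5 CPM in mutants against 22.9 to 38.3 CPM in wt, with 1 positive and 5 negative (median -0.54). As a percentage of that sum S1pr5 was at 22.8, 3.78 and 12.2 in mutants against 1.71, 4.61 and 10.3 in wt, which overlapped. T cell markers summed to 16.0 to 24.1 CPM in mutants against 11.1 to 27.8 CPM in wt, with 2 positive and 5 negative (median -0.093). B cell markers summed to 47.3 to 61.2 CPM in mutants against 31.1 to 54.3 CPM in wt, with 5 positive and 1 negative (median 0.49). The part of these cells in the S1pr1, S1pr2, S1pr3, S1pr4 and S1pr5 values was not tested.

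**Figure D4:**
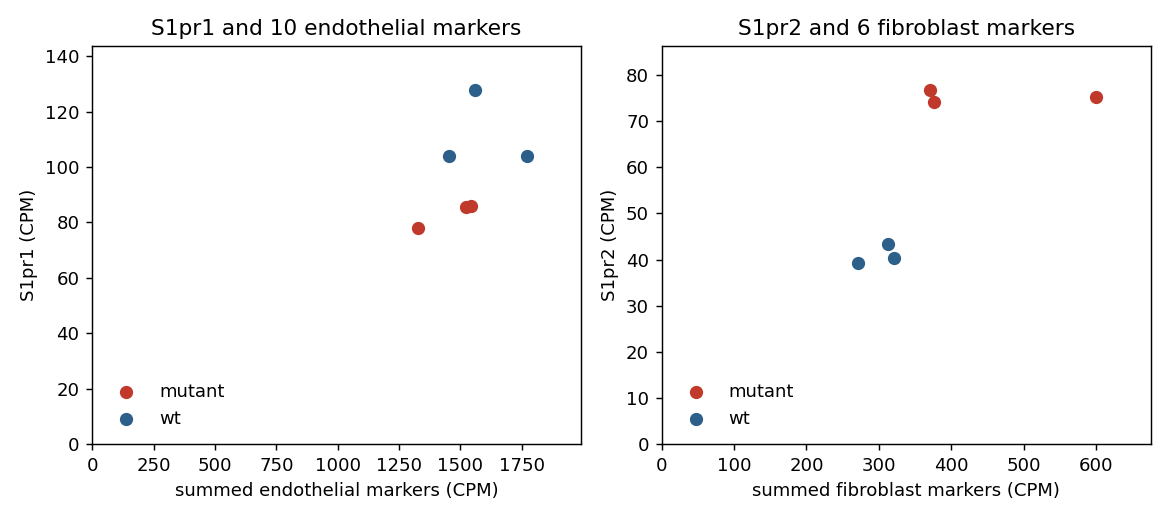
Left, S1pr1 against the sum of 10 endothelial markers; right, S1pr2 against the sum of 6 fibroblast markers, all in CPM, with 1 point per library (red mutant, blue wt). In the right panel the mutant points lie above the wt points (S1pr2 at 74.1 to 76.7 CPM) and to the right of them (fibroblast sums of 371 to 600 CPM in mutants against 271 to 321 CPM in wt). In the left panel the mutant points lie below the wt points, and the endothelial sums overlap.

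Genes whose pattern over the 6 libraries was most like that of S1pr2 were sought among 6690 genes with an established symbol and a mean CPM of 10 or more, by Pearson correlation of log2 CPM. The libraries share the group difference that chose the family, so that this is a description. The closest were Thbs1 (thrombospondin 1) with r of 0.994, Tmem167 with 0.993, the RNA-binding protein gene Syncrip with 0.989, the peroxisome biogenesis gene Pex2 with 0.983 and Atxn1l with 0.982. The most opposite were Swap70, an actin-binding Rac activator, at -0.990 and the ubiquitin ligase gene Cop1 at -0.990. In all, 23 genes had r over 0.95 and 21 had r under -0.95. By Spearman in place of Pearson correlation, 0 of the 5 closest genes were the same.

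The neighbours of S1pr2 on chromosome 9 were read in the same fit. Dnmt1, the maintenance DNA methyltransferase gene 2.47 kb away, was at 13.2 ± 3.51 CPM in mutants against 14.5 ± 0.908 in wt, and the translation factor gene Eif3g beyond it at 33.2 ± 3.41 CPM in mutants against 29.2 ± 4.73 in wt. On the other side Mrpl4, 25.96 kb away, was at 65.6 ± 12.2 CPM in mutants against 56.0 ± 15.4 in wt. Icam1, which encodes an adhesion ligand for neutrophil integrins and lies 39.2 kb away, was at 260.1 ± 44.5 CPM in mutants against 183 ± 12.2 in wt (SD, n = 3 each), without overlap, with a log2 fold change of 0.50, an edgeR adjusted p of 0.370 and a DESeq2 adjusted p of 0.034. The libraries of Dnmt1, Eif3g and Mrpl4 overlapped between groups.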

How the data were processed

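Libraries were prepared by SMARTSeq v2 from 2 ng of RNA and with Nextera XT, chemistry that keeps no strand information, and sequenced in paired reads of 151 cycles, per the labels' protocols. The authors deposited 1 table of raw read counts per gene, not normalized, with the summed exon length of each gene. STAR, featureCounts and GRCm38 are named in the submitters' processing notes, and their versions and the counting settings are not stated there. Symbols came from GENCODE M21, whose positions equalled those of the table for 55094 of 55487 genes.

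Genes were kept with edgeR's filterByExpr (minimum count 10), scaled by TMM and compared, mutant over wt, by the quasi-likelihood test of edgeR 4.0.16 in R 4.3.3, unpaired, with Benjamini-Hochberg adjustment over all 15774 tested genes at 0.05. RPKM is TMM-scaled CPM per kilobase of summed exon length. The procedure was tested on simulated data drawn from the fitted means and dispersions of these libraries. Such data cannot check for PCR copies or RNA of other cells. They also cannot check the choice of filter, since only genes that had passed it were simulated. Alternatives were DESeq2 (1.42.0), limma-voom (limma 3.58.1), other scalings and filters, and leaving out each library. The members and the gene lists were chosen with earlier results of these data known. Named list genes are the 3 with the smallest p in each of the 5 pathway lists. Cd69, Cx3cr1 and the leaving out of Nr4a1 were chosen after their values were seen. The markers Cxcr2, S100a8, Col1a1 and Sftpb were likewise named because of their values. PCR copies are part of these reads, as there were no molecular identifiers, and the count floor therefore covers counting error only.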

Additional observations from a re-analysis of the deposited data

How the results depend on the processing

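No paired analysis was possible because the labels give the libraries no replicate numbers that pair mutants with wt. The count of genes higher in mutants was 1 in the edgeR test and 81 by DESeq2, 41 with no filter on low counts and 13 at a mean CPM of 10 or more; it ranged from 0 to 1 when single libraries were left out, with 0 without mutant replicate 1, wt replicate 1 or wt replicate 3. The count of lower genes was 0, against 74, 29 and 6 under those 3 alternatives, and 0 to 1 with single libraries left out. With no filter the genes tested were the 55487 of the table without the 29379 that had no count, and not the 15774 of the main test. The share called among them was not computed. Under the same 3 alternatives 1 member was called each time, S1pr2, at adjusted p of 2.1e-08 (DESeq2), 0.0023 (edgeR, no filter) and 0.013 (edgeR, mean CPM of 10 or more). Its adjusted p lay between 0.060 and 0.639 under the other alternatives, and the cause was not tested. Of the pathway lists, DESeq2 called 1 ceramide-release gene, Acer2, and 1 receptor-coupling gene, Klf2, and Klf2 made up the 1 call in its list with no filter and at a mean CPM of 10 or more. With single libraries left out, the sign turned for S1pr5 without mutant replicate 1 (range -0.063 to 1.92), for Sphk1 without mutant replicate 2 or wt replicate 1 (range -0.40 to 0.27), and for Sgpl1 without mutant replicate 1 or wt replicate 1 (range -0.10 to 0.063). None of these 3 genes passed in any setting. Other members kept their sign in every alternative in which they were tested. In the order of levels per length 0 to 2 of the 10 members changed place with single libraries left out in each group, and with coding length, an alternative added after the data were seen, 5 members changed place in mutants and 6 in wt. With Spearman in place of Pearson correlation 0 of the 5 genes most like S1pr2 were the same. A count of 3, the floor used here, corresponds to 0.0829 to 0.102 CPM, and members with few counts, Sphk1 and S1pr5, have the widest intervals.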
